A study of Homo sapiens with 6 samples.

Results

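The plasminogen activation system was examined in the established human glioblastoma cell line U251 through 7 genes looked up by name among the 58735 genes of the deposited expression table. These were PLAU and PLAT, which encode the urokinase-type and tissue-type plasminogen activators (uPA and tPA), PLAUR, which encodes the uPA receptor (uPAR), the inhibitor genes SERPINE2 and SERPINB2, and ANXA2 and S100A10, whose products form the cell-surface annexin A2 complex. A total of 6 of the 7 genes reached an expression level that could be tested, and SERPINB2 did not. The NC group consisted of 3 cultures given sterile deionized water, and the TNF-α group of 3 cultures given recombinant human tumor necrosis factor-α at 10 ng/mL, each for 24 h. All cultures were of the same cell line, so that no other cell type or patient was sampled. The submitters described the replicates as independent. Gene expression was measured by RNA-seq of poly(A) RNA and is given as FPKM, fragments scaled to the length of the gene and to the size of the library. The length is that of the merged exons of all isoforms, and comparisons between genes depend on it.

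Plasminogen circulates as an inactive precursor that is cut into plasmin, a protease that dissolves fibrin and degrades extracellular matrix. uPA does this mainly at the cell surface, where it is held by uPAR, whereas tPA works best on fibrin. Serpins stop the activators by trapping them in a covalent complex. Annexin A2 and its partner p11, the product of S100A10, bind tPA and plasminogen and so bring enzyme and substrate together on the membrane. In glioma, uPA and uPAR are known from studies of cell migration and matrix invasion.

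Depth was similar in both groups, at 34204083 to 37897044 reads in genes per NC library and 31992167 to 37414474 per TNF-α library. The library size implied by the deposited FPKM was 0.693 and 0.759 of those reads in TNF-α replicates 2 and 3 and 0.925 to 0.959 of them in the other libraries, and summed FPKM was 463340 and 408175 against 256373 to 266716. All FPKM of one library share that divisor, so ratios between genes within a library do not depend on it. The libraries of the TNF-α group did not form one cluster. TNF-α replicates 2 and 3 had first principal component scores of 69.5 and 55.2, while the remaining 4 libraries scored -34.8 to -27.5, and this component held 88.4% of the variance of log2(FPKM + 1). Genes longer than 8 kb took 16.6% and 17.9% of the reads in TNF-α replicates 2 and 3 but 28.8% to 29.1% elsewhere. The share of ribosomal protein genes was 7.30% and 6.26% in this pair and 2.62% to 2.90% in the rest. All 6 genes examined as a check of the treatment, NFKBIA, TNFAIP3, ICAM1, CXCL8, CCL2 and BIRC3, were higher in the TNF-α group and passed the test, with log2 fold changes between 2.45 and 5.33. TNFAIP3, BIRC3 and NFKBIA kept that direction but lost the call in 10, 6 and 3 of 15 alternative analyses. Of 9 astroglial and glioma markers 8 were expressed, of which 5 had negative log2 fold changes and 3 positive ones (median -0.50). Their summed level was 755 to 827 FPKM in NC and 937 to 1292 FPKM in TNF-α libraries, of which VIM, an intermediate filament gene, made up 343 ± 18.7 and 753 ± 283 FPKM (SD, n = 3 each). S100B, a defining astroglial marker, lay between 0 and 0.168 FPKM, and GFAP, the intermediate filament of astrocytes, fell from 8.24 ± 1.19 to 2.19 ± 0.537 FPKM (SD, n = 3 each, log2 fold change -1.54, limma adjusted p = 0.0210, a call lost in 7 of the 15 alternatives). Of 21 markers of immune, endothelial, epithelial, neuronal and oligodendroglial cells, 18 stayed under 1 FPKM in every library, the exceptions being CD14, SNAP25 and SYT1, and the leukocyte and T cell markers PTPRC and CD3E were at 0 reads in all 6.

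The sequences upstream of PLAU and PLAUR are shown first because these 2 genes had the most alike profiles over the libraries of any pair of the 6 tested members. Each run is the 250 bases before a transcription start listed by RefSeq (GRCh38.p14), written 5′ to 3′ on the gene's own strand. Capitals mark TGANTCA, the binding motif of the transcription factor AP-1, and no other letters are in capitals.
PLAU (chr10:73910882-73911131, plus strand): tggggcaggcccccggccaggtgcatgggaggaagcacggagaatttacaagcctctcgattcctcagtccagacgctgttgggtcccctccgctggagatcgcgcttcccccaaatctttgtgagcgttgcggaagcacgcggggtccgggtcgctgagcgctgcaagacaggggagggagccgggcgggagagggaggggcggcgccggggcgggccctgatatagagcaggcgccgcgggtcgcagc
PLAUR (chr19:43670170-43670419, minus strand): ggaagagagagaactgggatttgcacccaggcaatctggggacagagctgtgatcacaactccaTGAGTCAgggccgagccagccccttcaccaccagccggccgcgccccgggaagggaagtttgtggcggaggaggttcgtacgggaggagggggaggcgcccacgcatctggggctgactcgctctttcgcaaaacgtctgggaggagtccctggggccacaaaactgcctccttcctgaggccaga

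The PLAUR window held 1 AP-1 match, which began at position -186 from the start, and the PLAU window held none. RefSeq windows were found for 6 of the 7 genes, 8 windows in all because PLAU and SERPINE2 have 2 each, and there was no entry for PLAT. TGANTCA was present in 3 of these 8 windows, those of PLAUR, ANXA2 (position -127) and SERPINB2 (position -102), and in 6.57% of all 35116 windows of the same length. The NF-kB consensus motif, searched on both strands as were all motifs, was in 0 of the 8 and in 9.96% of all windows. The looser form GGGNNNNNCC, which contains the consensus, was in 6 of the 8 and in 54.4% of all windows. TATAAA was in 2 of the 8, ANXA2 at -31 and SERPINB2 at -30, and in 10.7% of all windows. Such matches describe letters in a window, and binding was not measured.

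To determine how the 2 activators responded, PLAU was examined first. uPA is the secreted serine protease that converts plasminogen at the cell surface. PLAU (ENSG00000122861, chr10:73909177-73917497, plus strand) was at 84.2, 77.9 and 84.2 FPKM in NC replicates 1 to 3 and at 123, 200.1 and 186 FPKM in TNF-α replicates 1 to 3. Every TNF-α library was above every NC library, and TNF-α replicate 1 lay closest to the controls. The mean was 82.1 ± 3.63 FPKM without and 169.7 ± 40.7 FPKM with TNF-α (SD, n = 3 each), a ratio of 2.07, which did not pass the test over all 6 libraries (log2 fold change 1.01, SE 0.222, limma adjusted p = 0.133). Relative to the NC mean, the level was 1.50-fold in TNF-α replicate 1 and 2.44-fold and 2.26-fold in replicates 2 and 3. These values rested on 7539 to 15297 reads per library. As the cultures were measured in bulk, more cells expressing a gene and more RNA per cell cannot be told apart. Part of the gene, 31.1% of its 2950 exonic bases, overlaps the antisense gene C10orf55. Whether counting used strand is not given in the sources used here, so reads of the overlap cannot be assigned with certainty, although only 17 to 34 reads per library were listed for C10orf55.

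PLAT differed in the opposite direction. tPA is the activator that binds fibrin, and in the brain it is also made by neurons and glia. PLAT (ENSG00000104368, chr8:42175233-42207724, minus strand) was at 7.89, 6.90 and 8.71 FPKM in the 3 control libraries and at 5.46, 3.80 and 4.16 FPKM in TNF-α replicates 1 to 3. All TNF-α libraries lay under all NC libraries, here too with replicate 1 nearest to the controls. The mean was 7.83 ± 0.906 FPKM without and 4.47 ± 0.875 FPKM with TNF-α (SD, n = 3 each), a ratio of 0.571 (log2 fold change -0.70, SE 0.163, limma adjusted p = 0.151). Even at this lower level 651 to 1161 reads per TNF-α library covered the gene, against 1497 to 1886 per NC library, so that counting error is small beside the spread between libraries.

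**Figure D1:**
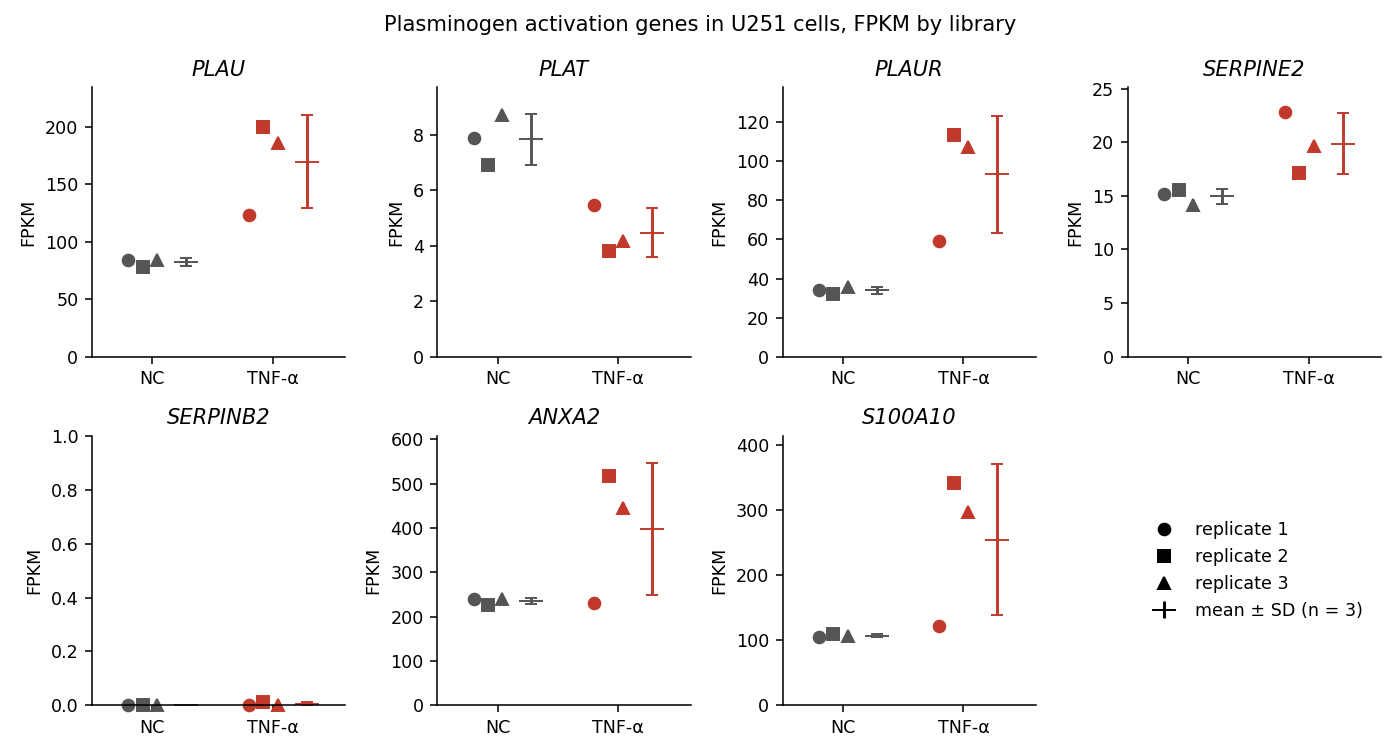
FPKM (vertical axes, linear, from 0) of the 7 plasminogen activation genes in each of the 3 NC libraries (grey) and 3 TNF-α libraries (red), with the mean and SD beside them. PLAU, PLAUR and S100A10 were higher in all TNF-α libraries and most so in replicates 2 and 3, SERPINE2 was highest in TNF-α replicate 1 at 22.8 FPKM, PLAT was lower in all TNF-α libraries, ANXA2 overlapped between groups and SERPINB2 was at or near 0.

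The balance of the 2 activators was compared within each library, where the scaling of the library cancels. The ratio of PLAU to PLAT FPKM was 10.7, 11.3 and 9.67 in the 3 control libraries and 22.6, 52.7 and 44.6 in TNF-α replicates 1 to 3. The lowest TNF-α ratio was therefore above the highest NC ratio, and the mean log2 ratio was 1.84 higher (exact two-sided permutation test, p = 0.1, the smallest p that 3 against 3 libraries allow, adjusted p = 0.133 over 4 ratios). Expressed as a share of the 2 activators' summed FPKM, PLAU accounted for 90.6% to 91.9% in the NC group and 95.8%, 98.1% and 97.8% in the TNF-α group. uPA was thus the activator with the higher mRNA level per length in all 6 libraries.

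PLAUR encodes uPAR, a membrane protein held by a lipid anchor that concentrates uPA on the cell. PLAUR (ENSG00000011422, chr19:43646095-43670547, minus strand) was at 34.2, 32.2 and 35.7 FPKM in the NC libraries. In TNF-α replicates 1 to 3 it was at 59.0, 114 and 107 FPKM. The groups did not overlap, and replicates 2 and 3 stood at nearly the same level, far above replicate 1. The mean was 34.0 ± 1.78 FPKM without and 93.3 ± 29.9 FPKM with TNF-α (SD, n = 3 each), a ratio of 2.74, the largest among the tested members (log2 fold change 1.37, SE 0.271, limma adjusted p = 0.104).

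Receptor and ligand were compared within libraries. The PLAU to PLAUR ratio of FPKM was 2.47, 2.42 and 2.36 in the 3 control libraries and 2.09, 1.76 and 1.73 in TNF-α replicates 1 to 3, again without overlap. The mean log2 ratio was 0.38 lower in the TNF-α group, a difference of -0.38 (exact two-sided permutation test, p = 0.1, adjusted p = 0.133). In FPKM the receptor's mRNA was therefore higher relative to its ligand's in each treated culture. A correction for GC content and length brought the log2 fold changes to 0.72 for PLAU and 0.82 for PLAUR, from 1.01 and 1.37. The ratio was not tested with that correction. The order of the 2 levels depends on the length used. FPKM divides by the merged exons of all isoforms, 4457 bases for PLAUR and 2950 for PLAU. With the principal transcripts of 1548 and 2321 bases instead, RPKM computed from the recovered reads was 92.6 ± 3.30 for PLAUR and 98.7 ± 3.57 for PLAU in the NC group, and 206 ± 42.6 for PLAUR and 167 ± 18.7 for PLAU in the TNF-α group (SD, n = 3 each). On that RPKM scale PLAUR was under PLAU in all NC libraries and above it in all TNF-α libraries.

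**Figure D2:**
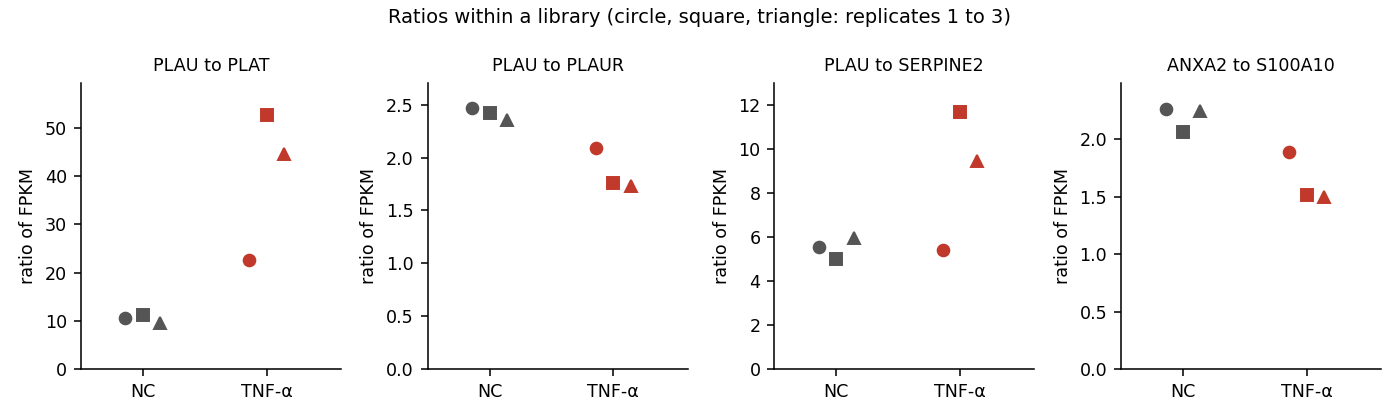
Ratio of FPKM between pairs of members within each library (vertical axes, linear, from 0), for NC (grey) and TNF-α (red) libraries, with circles, squares and triangles for replicates 1 to 3. PLAU to PLAT was higher and PLAU to PLAUR and ANXA2 to S100A10 were lower in every TNF-α library, whereas PLAU to SERPINE2 was within the NC range of 5.02 to 5.93 in TNF-α replicate 1 and above it, at 11.7 and 9.43, in replicates 2 and 3.

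Inhibitors were examined next. SERPINE2 encodes protease nexin-1, a serpin made by glia that blocks uPA, tPA, plasmin and thrombin. SERPINE2 (ENSG00000135919, chr2:223975112-224039319, minus strand) was at 15.2, 15.5 and 14.2 FPKM in the 3 control libraries and 22.8, 17.1 and 19.7 FPKM in TNF-α replicates 1 to 3. All treated cultures lay above all controls, but the order within the group was the reverse of that of PLAU, with replicate 1 highest and replicate 2 lowest. The mean was 15.0 ± 0.689 against 19.9 ± 2.87 FPKM (SD, n = 3 each), a ratio of 1.33 (log2 fold change 0.38, SE 0.148, limma adjusted p = 0.195). On the TPM scale, which moved the median of all tested genes to -0.41, the SERPINE2 difference was -0.10, below 0 but above that median. Relative to its target, the PLAU to SERPINE2 ratio did not separate the groups (exact two-sided permutation test, p = 0.3, adjusted p = 0.3 over 4 ratios).

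SERPINB2 encodes plasminogen activator inhibitor-2 (PAI-2), known as a gene that macrophages and some epithelia switch on in inflammation. SERPINB2 (ENSG00000197632, chr18:63871692-63903890, plus strand) had 0 reads in 5 libraries and 1 read in TNF-α replicate 2, equal to 0.0140 FPKM. With the limit of 3 reads that a count of 0 allows, a level above 0.0302 to 0.0450 FPKM, depending on the library, would have been detected. Such limits cover counting error only. SERPINB10, which shares 19.9% of the exonic bases of SERPINB2 on the same strand, was at 0 in all 6 libraries. No expression of SERPINB2 was thus detectable in either group at this depth, and no fold change is given.

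ANXA2 and S100A10 encode the 2 subunits of the annexin A2 complex, in which a dimer of p11 links annexin A2 molecules under the membrane and p11 offers the lysine that plasminogen binds. Both were among the genes with the most mRNA, at the 99.1 and 98.1 percentiles of mean FPKM of tested genes. ANXA2 (ENSG00000182718, chr15:60347134-60402883, minus strand) was at 239, 227 and 239 FPKM in the 3 control libraries and 232, 517 and 445 FPKM in TNF-α replicates 1 to 3. Replicate 1 of the TNF-α group lay inside the NC range, and only replicates 2 and 3 were high, so the groups overlapped. The mean was 235 ± 7.20 against 398 ± 149 FPKM (SD, n = 3 each, log2 fold change 0.68, SE 0.324, limma adjusted p = 0.197).

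S100A10 (ENSG00000197747, chr1:151982915-151994390, minus strand) was at 105, 109.7 and 106 FPKM in the NC libraries. In TNF-α replicates 1 to 3 it was at 123, 342 and 298 FPKM. Groups did not overlap, but the level was 1.15-fold of the NC mean in replicate 1 and 3.20-fold and 2.78-fold in replicates 2 and 3. The mean was 107 ± 2.25 against 254 ± 116 FPKM (SD, n = 3 each, log2 fold change 1.11, SE 0.395, limma adjusted p = 0.195). In FPKM the 2 subunits differed to an unequal extent, and their ratio was not tested with the GC content and length correction. Their ratio, ANXA2 to S100A10, was 2.27, 2.07 and 2.25 in the 3 control libraries and 1.89, 1.51 and 1.50 in TNF-α replicates 1 to 3, a log2 difference of -0.43 without overlap (exact two-sided permutation test, p = 0.1, adjusted p = 0.133).

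The 2 libraries with high ANXA2 and S100A10 were those with fewer reads in long genes and more in ribosomal protein genes. The principal transcripts of ANXA2 and S100A10 are short, at 1676 and 1202 bases, and so is that of PLAUR, at 1548 bases. The share of reads in long genes was taken by merged exons instead. By that length ANXA2, S100A10 and PLAUR have 8824, 1543 and 4457 bases, so ANXA2 is itself among the genes longer than 8 kb. After a correction for GC content and length, the log2 fold changes were 0.43 for ANXA2 (adjusted p = 0.193) and 0.56 for S100A10 (limma adjusted p = 0.111). For PLAUR it was 0.82, against 1.37 without the correction. The part of these read shares in the differences was not tested.

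Reads of ANXA2 can be confused with those of ANXA2P2, a processed pseudogene copied from its mRNA. ANXA2P2 (chr9:33624274-33625293) was at 125, 128 and 132 FPKM in the 3 control libraries and 121, 197 and 189 FPKM in TNF-α replicates 1 to 3 (log2 fold change 0.36, limma adjusted p = 0.256). The same 2 libraries were high as for the parent gene. Over its 1020 bases the pseudogene transcript differs from the ANXA2 coding sequence at 16 positions, 98.4% identity, and the longest stretch without a difference is 221 bases. The window of 90 bases with the most differences is shown because reads of this window can be told apart. Positions count from the A of the ATG, the window covers 131 to 220, and capitals mark the 5 substitutions from ANXA2 to ANXA2P2, T178G, A190G, G191A, C215T and G220T. In ANXA2 the window spans exon 4 (chr15:60382342-60382359) and exon 5 (chr15:60364452-60364523) of the coding transcript, minus strand, and in ANXA2P2 the only exon (chr9:33624404-33624493), plus strand, both from GENCODE 29 transcripts.
ANXA2: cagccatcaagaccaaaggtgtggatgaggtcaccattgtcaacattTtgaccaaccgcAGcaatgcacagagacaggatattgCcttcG
ANXA2P2: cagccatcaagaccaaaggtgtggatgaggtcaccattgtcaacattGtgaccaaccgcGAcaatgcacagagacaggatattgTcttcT

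Of the reads given to either gene, ANXA2P2 took 5.70% to 6.14% in the 3 control libraries and 5.70%, 4.21% and 4.68% in TNF-α replicates 1 to 3. Levels of both are uncertain to the extent that reads between the substitutions were placed on one or the other. The other 2 copies were further from the parent gene, with 93.8% identity for ANXA2P1, at 0.0672 to 0.534 FPKM, and 92.2% for ANXA2P3, at 0 in all libraries.

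Taken over all 6 libraries, 0 of the 6 tested members passed an adjusted p of 0.05, where 1.01% of the 12136 tested genes did. At an unadjusted p under 0.05 it was 5 of 6 members, ANXA2 being the exception, and 24.2% of all tested genes. Groups did not overlap for 5 of 6 members, 4 higher and 1 lower, against 30.1% of all tested genes, 14.8% higher and 15.3% lower. The median log2 fold change was 0.84 over the 6 members and 0.04 over all tested genes.

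Results differed with the TNF-α libraries that entered. When TNF-α replicate 1 alone was set against the NC group, PLAU (log2 fold change 0.58, adjusted p = 0.0108), PLAUR (0.78, adjusted p = 0.00486) and SERPINE2 (0.58, limma adjusted p = 0.0134) rose and passed the test, 3 of 6 members where 6.03% of all genes passed. PLAT, at -0.45 (adjusted p = 0.0988), and S100A10, at 0.19 (limma adjusted p = 0.177), did not pass, and ANXA2 was at -0.02. In this fit the lone library is assumed to vary like the NC libraries. When replicates 2 and 3 were set against the NC group, all 6 members passed, as did 79.4% of all tested genes, so that the count says little about these genes. The log2 fold changes were then 1.22 for PLAU, 1.67 for PLAUR, -0.82 for PLAT, 0.28 for SERPINE2, 1.03 for ANXA2 and 1.57 for S100A10.

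With the GC content and length correction over all 6 libraries, PLAU (log2 fold change 0.72, SE 0.0921, adjusted p = 0.0156) and PLAUR (0.82, SE 0.0725, limma adjusted p = 0.00444) rose and passed, 2 of 6 members where 3.22% of all genes passed. Quantile normalization gave PLAUR as the 1 member past the threshold (0.91, limma adjusted p = 0.0238), where 1.52% of all genes passed. PLAU and PLAUR were thus higher in all 15 alternatives, by 0.44 to 1.22 and 0.78 to 1.67 on the log2 scale, and PLAT was lower in all 15, by -1.25 to -0.45. S100A10 stayed higher, by 0.19 to 1.57. For these genes the groups did not overlap. Leaving out libraries, the pseudocount, dropping the filter and the replicate block therefore could not turn their direction. Only TPM, quantile normalization, median centring, limma-voom and the GC content and length correction could have turned it. SERPINE2 changed direction in 1 alternative and ANXA2 in 2. Over these alternatives the limma adjusted p ranged from 1.43e-05 to 0.479 for PLAU, 8.14e-06 to 0.433 for PLAUR, 0.000181 to 0.479 for PLAT, 0.0134 to 0.815 for SERPINE2, 3.81e-05 to 0.914 for ANXA2 and 1.05e-05 to 0.487 for S100A10. The lowest of each range came without TNF-α replicate 1, except for SERPINE2, where it came with that library alone.

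**Figure D3:**
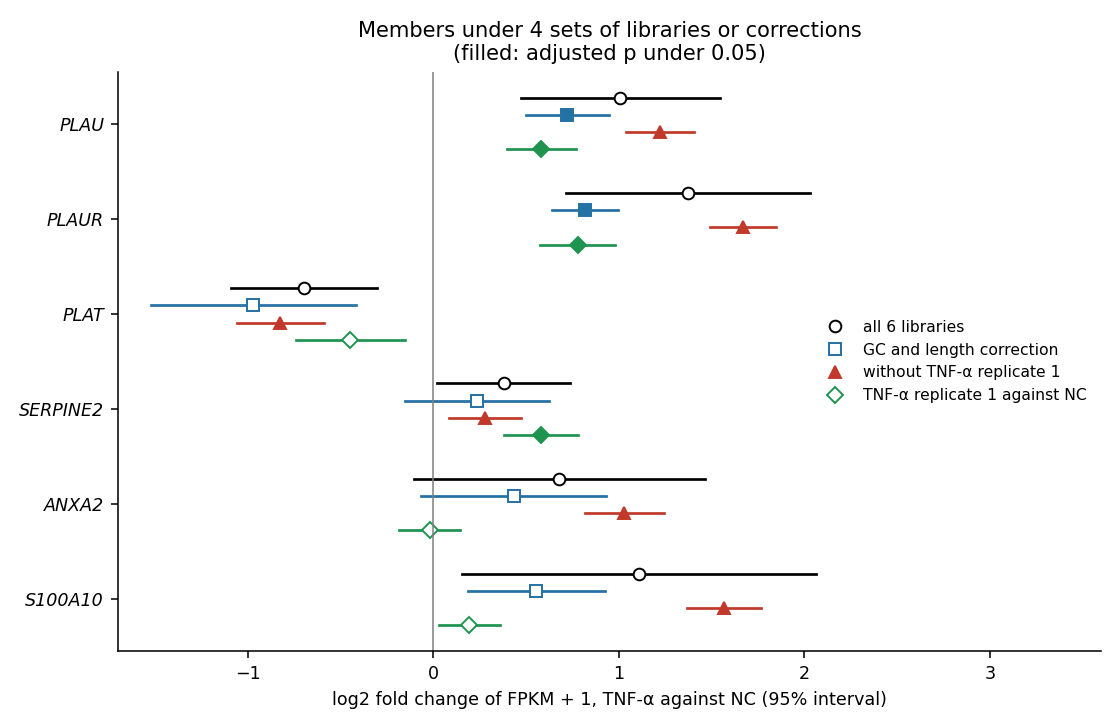
Log2 fold change of FPKM + 1, TNF-α against NC, with its 95% interval (horizontal axis) for the 6 tested members under 4 choices of libraries or correction, where filled symbols have a limma adjusted p under 0.05. PLAU and PLAUR lie to the right of 0 and PLAT to the left in all 4, with PLAU between 0.58 and 1.22, and ANXA2 moves from -0.02 with TNF-α replicate 1 alone to 1.03 without it.

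Members were also compared with each other and with all tested genes by the correlation of log2(FPKM + 1) over the 6 libraries, as a description, since the points share library quality and treatment. PLAU and PLAUR were the most alike pair of members (r = 0.999), and each was among the 3 closest neighbours of the other. The other closest neighbours of PLAU were ETV4, an ETS family transcription factor (r = 0.999), and MSANTD3 (r = 0.999), and those of PLAUR were CEBPB, a transcription factor of inflammation (r = 0.999), and PPIF (r = 0.999). ANXA2 and S100A10 formed a second pair (r = 0.990), but 1453 and 739 tested genes, respectively, had r above 0.99 with them, against 95 with PLAU and 113 with PLAUR. PRR13, EIF3I and BCAP31 were closest to ANXA2, and GLA, GPN1 and DYNLT1 to S100A10. PLAT was nearest to LRCH4, FKBP9 and NUMA1 (r of 0.997 to 0.994) and opposite to PLAU (r = -0.957). SERPINE2 resembled the other members least, with r between 0.230 and 0.582 to PLAU, PLAUR, ANXA2 and S100A10, and was nearest to UGCG, FGF5 and DUSP6 (r of 0.992 to 0.980).

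A list of 28 further genes of the system covered other activating proteases, inhibitors, cell-surface plasminogen binding, receptor uptake and the integrins that associate with uPAR. Of these 17 were tested, 11 were under the filter on low values, and 0 passed the test (limma, 4 at an unadjusted p under 0.05, against 24.2% of all tested genes). Groups did not overlap for 4, against 30.1% of all tested genes, with PLGRKT and ITGA5 higher and LRP1 and VLDLR lower, and the median log2 fold change was 0.12. Plasminogen itself was not made at a detectable level, since all reads of PLG, 2 in number, came from NC replicate 3. Circulating inhibitors of plasmin were low as well, with SERPINF2 (α2-antiplasmin) at 0 to 0.210 FPKM and A2M at 0.110 to 0.283 FPKM.

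Among the plasminogen binders, ENO1, which encodes the glycolytic enzyme enolase that also serves as a plasminogen receptor, followed ANXA2. Its level was 729, 676 and 736 FPKM in the 3 control libraries and 662, 1878 and 1568 FPKM in TNF-α replicates 1 to 3, so that replicate 1 was below all controls and replicates 2 and 3 far above them (log2 fold change 0.81, limma adjusted p = 0.204). PLGRKT, whose product is a plasminogen receptor with an exposed C-terminal lysine, was at 7.44 ± 0.716 and 17.0 ± 5.74 FPKM (SD, n = 3 each, log2 fold change 1.04, limma adjusted p = 0.172), with every TNF-α library above every control. AHNAK, a very large protein that associates with the annexin A2 complex, was at 77.1, 18.7 and 19.9 FPKM in TNF-α replicates 1 to 3 against 73.7 ± 2.02 FPKM in the NC group (SD, n = 3), opposite to its partner in the same 2 libraries. AHNAK has 19465 exonic bases but a principal transcript of 1024 bases. Genes longer than 8 kb by merged exons took a smaller share of the reads in these 2 libraries. The part of that share in the AHNAK difference was not tested. PLGRKT, ITGA5, AHNAK, LRP1, VLDLR, PLG, SERPINF2 and A2M were named after their values had been seen.

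ITGA5, the α5 chain of the fibronectin receptor that works with uPAR, was at like levels in the 3 treated cultures. It was at 39.0, 38.7 and 43.6 FPKM in the 3 control libraries and 65.6, 74.7 and 68.3 FPKM in TNF-α replicates 1 to 3, with no overlap between groups (log2 fold change 0.77, SE 0.139, limma adjusted p = 0.0886). It passed with replicate 1 alone (0.69, adjusted p = 0.0109) and after the GC content and length correction (0.67, limma adjusted p = 0.00888), the 1 gene of the 17 to do so in either, where 6.03% and 3.22% of all tested genes passed, with an adjusted p of 8.64e-05 to 0.402 over the 15 alternatives (limma). ITGB1, the β1 chain that pairs with it, was at 110.1 ± 1.99 FPKM in the NC group and at 116, 34.2 and 41.3 FPKM in TNF-α replicates 1 to 3. ITGA3, which also binds uPAR, was at 286 ± 24.5 and 310.0 ± 15.4 FPKM, and CTSB, which encodes a lysosomal protease able to activate pro-uPA, at 101 ± 6.28 and 130.0 ± 31.1 FPKM (SD, n = 3 each). LRP1, the endocytic receptor that clears inhibited uPA, was at 1.17 ± 0.0554 and 0.641 ± 0.312 FPKM (SD, n = 3 each), with a log2 fold change of -0.42 that became 0.22 after the GC content and length correction.

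**Figure D4:**
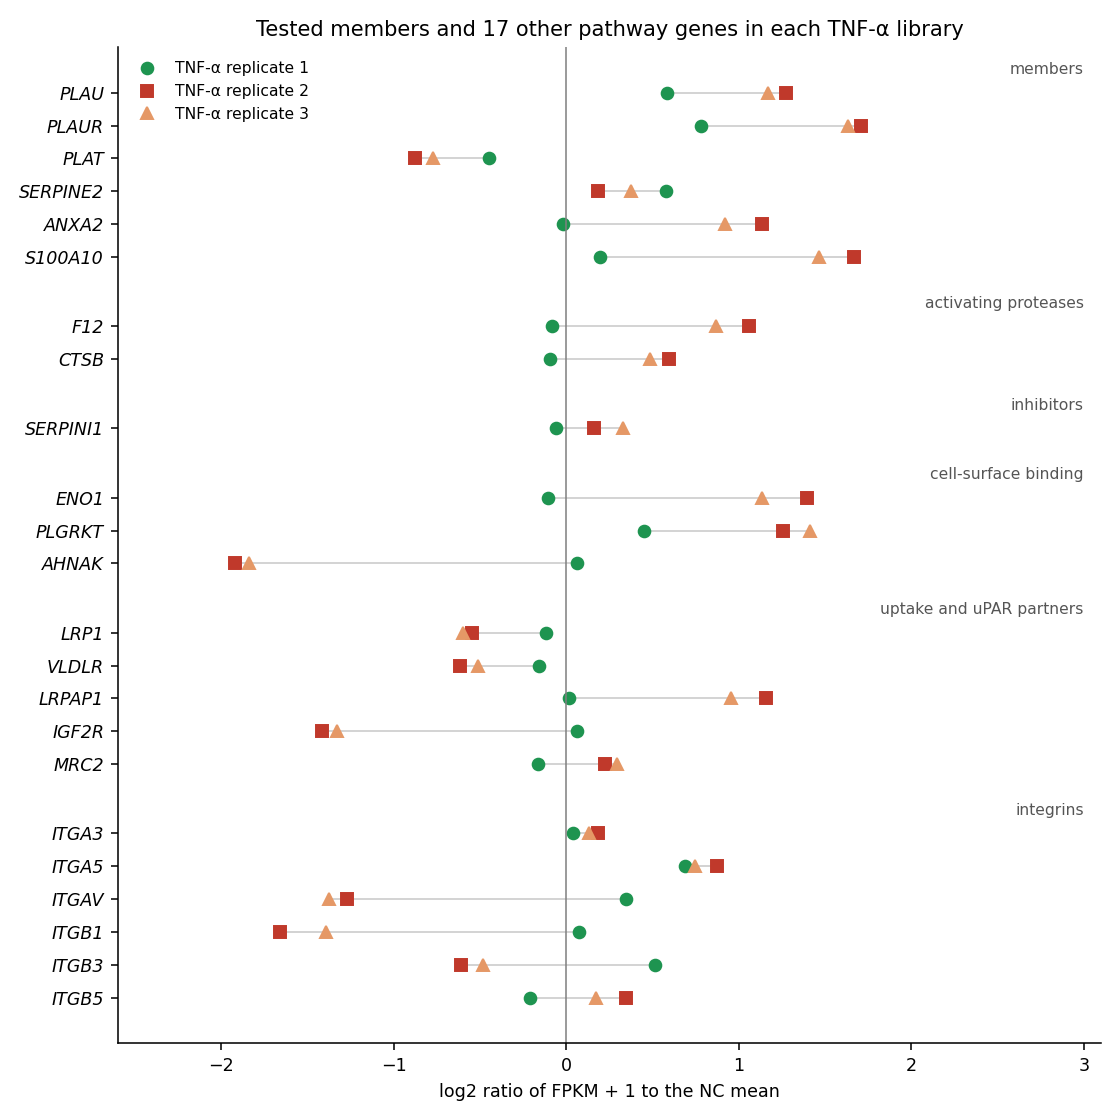
Log2 ratio of FPKM + 1 to the NC mean (horizontal axis) in TNF-α replicates 1, 2 and 3 (circles, squares, triangles) for the 6 tested members and the 17 tested other genes of the system, grouped by role. Replicates 2 and 3 lie close together in most rows and apart from replicate 1, as in AHNAK and ITGB1, whereas the 3 libraries lie between 0.69 and 0.87 for ITGA5.

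Plasmin substrates and precursors that plasmin activates were followed in a list of 16 genes. A total of 7 were tested and 0 passed (limma, 1 at an unadjusted p under 0.05, against 24.2% of all tested genes), with a median log2 fold change of -0.33. The fibrinogen chains FGA and FGB and the growth factor HGF were at 0 in every library, and the third fibrinogen chain, FGG, did not exceed 0.0643 FPKM. THBS1, which encodes the matrix protein thrombospondin-1, was at 459, 441 and 502 FPKM in the 3 control libraries and 340.5, 105 and 133 FPKM in TNF-α replicates 1 to 3. All treated cultures were below all controls, replicate 1 least so (log2 fold change -1.47, limma adjusted p = 0.195, and -0.45 with replicate 1 alone). Over the alternatives the limma adjusted p of THBS1 ranged from 1.26e-05 to 0.487. F2R, the thrombin receptor PAR1, was at 120.4 FPKM in TNF-α replicate 1 and 44.3 and 58.2 FPKM in replicates 2 and 3, on either side of the NC mean of 79.6 ± 4.12 FPKM (SD, n = 3). Its log2 fold change was -0.23 over all 6 libraries and 0.59 with replicate 1 alone, opposite to THBS1 in that library. TGFB1, whose latent product plasmin can release, was at 106 ± 2.20 and 191 ± 77.8 FPKM, with replicate 1 at 105 FPKM. FN1 and LAMC1, which encode fibronectin and a laminin chain, were at 50.1 ± 3.15 and 30.6 ± 18.2 FPKM and at 80.0 ± 4.06 and 64.9 ± 28.9 FPKM (SD, n = 3 each), with replicate 1 at 51.5 and 98.3 FPKM. THBS1, FN1 and LAMC1 have 9158, 17315 and 8406 exonic bases. They are thus among the genes longer than 8 kb, whose share of the reads was smaller in replicates 2 and 3. ANXA2, with 8824 exonic bases, is also among those genes and was higher in these replicates. The part of that share in the THBS1, FN1 and LAMC1 differences was not tested.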

How the data were processed

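RNA-seq of 6 U251 libraries was analysed, 3 NC and 3 TNF-α, grouped by sample title. The authors deposited FPKM per gene, without pooling or log transformation. The submitters' processing notes name HISAT2 2.0.5, StringTie 1.3.3b and featureCounts 1.5.0, and the use of strand in counting is not given in the sources used here. All 58735 gene identifiers and lengths matched GENCODE 29 (GRCh38). A further 6 columns of values match no sample described here and were not used. Reads were recovered from FPKM times gene length, which gave whole numbers in each library for 100% of values (tolerance 0.01 reads).

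Genes with at least 1 FPKM in at least 3 libraries (12136) were tested as log2(FPKM + 1) with limma 3.58.1 in R 4.3.3 (trend, two-sided), with Benjamini-Hochberg adjustment over all of them, and fold changes refer to log2(FPKM + 1), so that those of low genes are understated. The p-values measure the spread between these cultures. The members, the lists and the tests were chosen with earlier results of these data known. A few genes of the lists are not reported here and were left out of their counts. Named genes were the members, the 6 treatment check genes, up to 5 genes per list past the threshold, the 5 with the highest mean FPKM of the system and substrate lists, pseudogenes of a member and the 3 closest neighbours of each member. Ratios between members were tested by exact permutation with scipy 1.17.1. The GC content and length correction subtracted natural splines (5 degrees of freedom) from each library's log2 ratios. Other alternatives were a pseudocount of 0.1, no filter, TPM, quantile normalization, median centring, the replicate number as a block, limma-voom on the recovered reads and leaving out libraries. The fit of TNF-α replicate 1 alone and the levels per principal transcript were added after the data were seen.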

Additional observations from a re-analysis of the deposited data

How the results depend on the processing

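Over all tested genes 123 passed, and 58 without the filter, 71 on TPM, 185 after quantile normalization, 77 with limma-voom on the recovered reads, 391 after the GC content and length correction, 732 with TNF-α replicate 1 alone, and 10 to 9630 when single libraries were left out (the highest without TNF-α replicate 1). The replicate block left 24 and changed no call of a member. Pairing was examined on what remained of each library after its group's mean was subtracted for each gene. These remainders correlated between NC and TNF-α libraries of the same number at -0.014, -0.178 and 0.124. Between libraries of unlike number they correlated at -0.161 to 0.181. No pairing by number was visible, but with 3 libraries per group this could not exclude one. For the members, 0 passed, and 1 after quantile normalization, 2 after the correction, 3 with TNF-α replicate 1 alone and 0 to 6 when single libraries were left out. For the other genes of the system the counts were 0, 1 after the correction, 1 with replicate 1 alone and 0 to 14. For substrates they were 0, 2 with replicate 1 alone and 0 to 7, and for relatives 0, 1 after quantile normalization, 3 after the correction, 5 with replicate 1 alone and 0 to 15. The highest of each range was without TNF-α replicate 1. The 4 ratios between members kept their direction when single libraries were left out and with a pseudocount of 1 added to both genes. PLAU to PLAT, PLAU to PLAUR and ANXA2 to S100A10 did not overlap between groups. Leaving out libraries therefore could not turn the direction of those ratios. None of the 4 ratios was computed after the GC content and length correction. With TNF-α replicate 1 alone, an alternative chosen after seeing the data, the log2 difference of PLAU to SERPINE2 turned to -0.022 and the other 3 ratios kept their direction.

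The median of all tested genes moved to -0.41 on TPM and -0.21 with limma-voom. Directions turned as follows on the log2 scale, and the cause was not tested. On TPM they were SERPINE2 -0.10, ITGA3 -0.38, CTSB -0.17, SERPINB8 -0.0073 and ANXA2P2 -0.14. After quantile normalization they were ANXA2 -0.11, ITGA3 -0.60, CTSB -0.25 and ANXA2P2 -0.26, and with limma-voom ITGA3 -0.15. After the GC content and length correction they were LAMC1 0.025, LRP1 0.22 and ANXA2P2 -0.024. With TNF-α replicate 1 alone they were ANXA2 -0.019, ENO1 -0.11, CTSB -0.10, ITGB1 0.074, TGFB1 -0.016, F2R 0.59, LAMC1 0.29, FN1 0.042, AHNAK 0.064, S100A4 -0.66 and ANXA2P2 -0.082. F2R ranged from -0.64 to 0.074 when single libraries were left out.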

Other observations

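Relatives of the members were described beside them, in a list of 22 annexin, S100, clade B serpin and LY6/uPAR genes, of which 16 were tested and 0 passed (limma, 6 at an unadjusted p under 0.05, against 24.2% of all tested genes). Groups did not overlap for 8 of the 16, 7 higher and 1 lower, against 14.8% higher and 15.3% lower of all tested genes, and the median log2 fold change was 0.46. S100A11 and S100A4 lie on chromosome 1, as does S100A10. S100A11, an annexin-binding protein like p11, was at 354, 350.4 and 375 FPKM in the 3 control libraries and 455, 1425 and 1190 FPKM in TNF-α replicates 1 to 3 (log2 fold change 1.35, limma adjusted p = 0.195), again with replicates 2 and 3 far above replicate 1. S100A4, linked to tumor cell motility, was at 3.16, 3.81 and 3.16 FPKM in the 3 control libraries and 1.76, 8.09 and 8.12 FPKM in TNF-α replicates 1 to 3, on both sides of the controls. With TNF-α replicate 1 alone S100A4 passed with a log2 fold change of -0.66 (limma adjusted p = 0.0300) and S100A11 with one of 0.34 (limma adjusted p = 0.0428).

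Among proteins with the fold of uPAR, CD59, an anchored inhibitor of complement, was at 14.7 ± 0.435 and 29.6 ± 7.78 FPKM (SD, n = 3 each, log2 fold change 0.93, limma adjusted p = 0.148). LYPD6 was at 5.09 ± 0.418 and 7.93 ± 1.16 FPKM (log2 fold change 0.55, limma adjusted p = 0.178), and LYPD1 at 31.5 ± 0.700 and 23.7 ± 3.97 FPKM (log2 fold change -0.41, limma adjusted p = 0.195). All 3 passed with TNF-α replicate 1 alone, which with S100A4 and S100A11 made 5 of the 16, where 6.03% of all tested genes passed. LYPD6 and LYPD1 also passed after the GC content and length correction, as did SERPINB8 (log2 fold change 0.59, limma adjusted p = 0.0495), which made 3 of the 16 where 3.22% of all tested genes passed. For LYPD1, 48.9% of the exonic bases overlap GPR39 on the other strand. SERPINB8, of the same clade as SERPINB2, was at 3.47 ± 0.211 and 4.88 ± 0.242 FPKM (log2 fold change 0.40, limma adjusted p = 0.195), with all treated cultures above all controls. These genes were named after their values were seen.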
